A study of Mus musculus with 12 samples.

Results

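The lysosome and autophagy genes described here are 41 genes listed by function: 3 MiT/TFE transcription factors, a lysosomal calcium channel, 8 cathepsins, 8 glycosidases and lipid hydrolases, 4 activator, cholesterol and granulin proteins, 6 membrane proteins of the lysosome, 6 autophagy genes, and 5 subunits or accessory proteins of the proton pump. They were read in RNA-seq values of *BCR-ABL1* transformed B-ALL cells (B-cell acute lymphoblastic leukemia) from *Ctnnb1* fl/fl mice, in which the β-catenin gene is flanked by loxP sites. Pre-B cells from bone marrow were grown with IL7 and transformed with a retrovirus, so the values are those of cultured cells and not of a leukemia in an animal. Both groups carried the ERT2 vector, which holds no Cre, so β-catenin stays intact, and both received 4-OHT, the active tamoxifen metabolite, for 2 days at 1 µM. The treated group also received LY2090314, a GSK3 inhibitor, for 1 day at 40 nM, as the sample labels give it, whereas the study's own description of the experiment gives a shorter exposure. There were 3 samples in each group, and the comparison asks which transcripts change when GSK3 is inhibited in cells with β-catenin.

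The deposited values are regularized log2 values (rlog), in which reads are scaled for library size and genes with few reads are drawn towards their own mean. Read counts are not given with them, and library depth is not known. They are not divided by transcript length, so differences between groups are compared here and levels of different genes are not. Of the 41 genes, 39 had a mean rlog of at least 3 over the 6 samples and were tested, among 11536 tested genes in all. The other 2 are *Mitf* and *Cd63*. Below, "called" means an adjusted p under 0.05 by limma with Benjamini-Hochberg adjustment over all 11536 genes. The treated samples are named a, b and c. Samples a and b share the leading number of their deposited column names, and c has another. What that number stands for is not stated.

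Lysosomes are acidic organelles in which hydrolases break down protein, glycans, lipids and nucleic acids delivered by endocytosis and by autophagy. In autophagy a double membrane closes around cytoplasmic cargo and fuses with the lysosome. The MiT/TFE factors (Tfeb, Tfe3, Mitf) bind the CLEAR element in the promoters of many lysosomal genes. The kinase mTORC1, which is recruited to the lysosomal surface when amino acids are plentiful, phosphorylates Tfeb and keeps it in the cytoplasm. GSK3 has also been described as a kinase of Tfeb. In B cells, lysosomal proteases process antigen and the invariant chain for presentation by MHC class II.

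Of the 39 tested genes, 23 were higher and 5 were lower with LY2090314. Called genes made up 71.8% of the members and 50.1% of all tested genes. The higher genes were 59.0% of the members against 24.8% of all tested genes, and the lower genes were 12.8% against 25.3%. With a log2 difference of at least 0.5 asked for as well, 15 members were higher (38.5%, against 11.3% of all tested genes) and 3 were lower (7.69%, against 9.37%). The median log2 difference of the members was 0.37, beside a median of 0.01 over all tested genes. The groups did not overlap for 28 members, 24 of them higher and 4 lower, which is 71.8% against 58.6% of all tested genes. An exact two-sided permutation test gives these 28 genes p = 0.10, the smallest that 3 against 3 samples allow, so single genes rest on limma.

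The rise in the median of the members was present in each treated sample. The median of the members against the control mean was 0.36 in a, 0.35 in b and 0.34 in c, whereas the median of all tested genes lay between -0.003 and 0.01 in the same samples. In a 29 members lay above every control sample and 7 below, in b 26 and 6, and in c 31 and 4. The shares of all tested genes outside the controls in single samples were not computed. These counts therefore have no background beside them, and the rise by sample rests on the medians. The SD over members of the difference between samples was 0.18 to 0.21 for pairs of controls, 0.15 between a and b, 0.31 between a and c, 0.24 between b and c, and 0.83 to 0.99 for a control and a treated sample. Samples a and b thus lay closer to each other than to c over these genes, as they did over all tested genes. There the SD was 0.19 between a and b, 0.25 for each of them with c, and 0.58 to 0.62 for a control and a treated sample. The member SD for a control and a treated sample includes *Ctsh*, with a log2 difference of 4.59. The SD without *Ctsh* was not computed, so the member range is not compared with that of all tested genes. The study describes the samples of a group as biological replicates from different mice, and does not say how a and b relate under their shared leading number. If they share a culture, the spread within the treated group is in part technical.

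**Figure D1:**
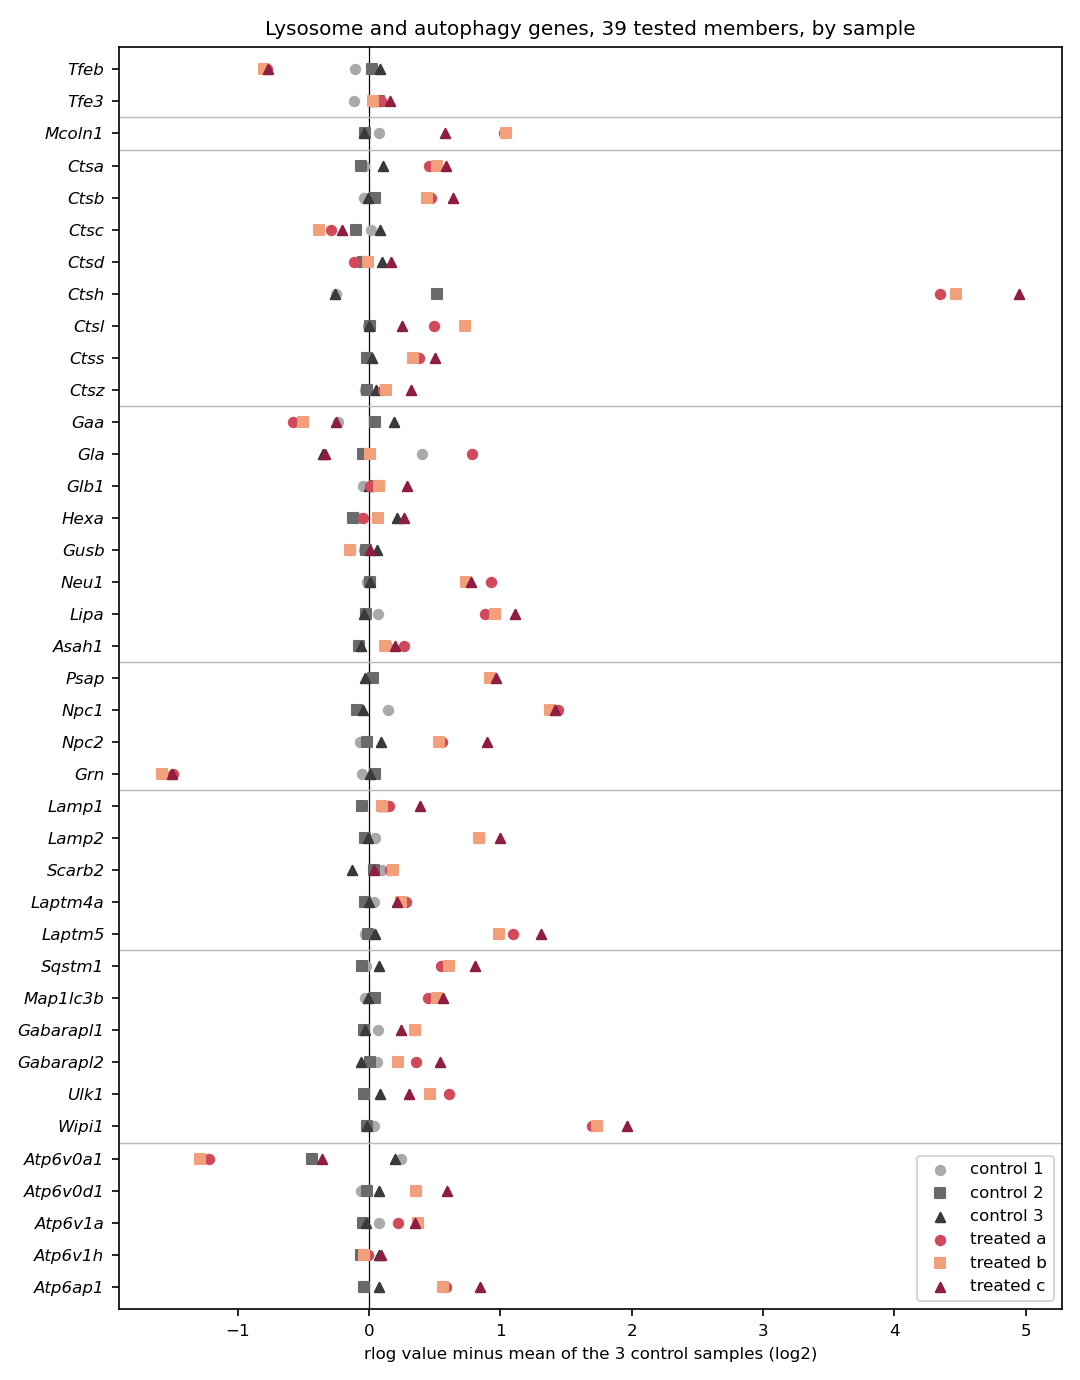
Each point is the rlog value (log2) of 1 tested member in 1 sample minus the mean of its 3 control samples, for controls 1 to 3 (grey) and treated samples a to c (red), with grey lines between the role groups. Most treated points lie right of the controls, *Ctsh* farthest at a difference of 4.59. Those of *Grn* and *Tfeb* lie to the left, and those of *Atp6v0a1* lie left on average but overlap the controls.

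The cells themselves were checked by markers, in short. All 12 B-lineage markers were above the limit. In the treated samples 10 of them were lower, *Ptprc* was higher and *Cd79a* was not called, and their summed level (log2 of the sum of 2 to the power of the rlog values) was 16.40 to 16.42 in controls and 15.95 to 16.05 with LY2090314. Of 12 macrophage and myeloid markers 3 were above the limit, *Lyz2* (log2 difference 0.53), *Ly6c2* (2.03) and *Mrc1* (-0.99), and *Adgre1*, *Mpo*, *Elane*, *S100a8* and *S100a9* were listed at 0 in every sample. The summed myeloid level was 7.04 to 7.10 in controls and 7.25 to 7.34 in treated samples. Of 7 T-cell markers only *Thy1* was above the limit (summed level 4.27 to 4.43 and 4.14 to 4.19). Of 7 erythroid and megakaryocyte markers none was (3.42 to 3.46 and 3.38 to 3.41). Of 7 genes listed as stromal markers only *Pecam1* was (10.47 to 10.55 and 11.61 to 11.78). That sum is nearly all *Pecam1* (means 10.51 in controls and 11.72 in treated samples), so it is not a measure of stroma. The next highest of that list, *Cdh5*, had a mean of 1.47 over the 6 samples. The part of these marker changes in the lysosomal values was not tested. In bulk RNA a change in the mix of cells and a change of RNA per cell cannot be told apart. As checks of the treatment, *Myc* fell by 2.64 on the log2 scale and 6 of 6 β-catenin feedback genes named by the study for another experiment were higher. *Ctnnb1* fell by 0.35, and *Gsk3b*, a target of the inhibitor, differed by 0.13 (adjusted p = 0.051 by limma).

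Among the transcription factors, *Tfeb* transcripts were lower and *Tfe3* transcripts were not called. *Tfeb* (ENSMUSG00000023990, chromosome 17, 47737030 to 47792419 of GRCm38, plus strand) had rlog values of 9.60, 9.73 and 9.78 in the controls and 8.93, 8.90 and 8.93 with LY2090314. Every treated sample lay below every control, and the treated samples differed less among themselves than the controls did. *Tfeb* fell by 0.78 on the log2 scale (SE 0.06, adjusted p = 4e-05 by limma), which is a 1.72-fold higher level in controls. *Tfe3*, a paralog that binds the same element, had 8.854, 9.048 and 9.011 in the controls and 9.061, 8.998 and 9.127 in treated cells. Its groups overlapped, and the difference of 0.09 had a 95% confidence interval of -0.08 to 0.26 (adjusted p = 0.33 by limma). *Mitf*, best known from melanocytes and osteoclasts, lay below the limit with values between 2.29 and 2.61 and was not tested. These are transcript values. Where the proteins were in the cell, and whether they were phosphorylated, was not measured.

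The promoters of the members were searched for the letters that MiT/TFE factors are known to bind. RefSeq windows of GRCm38.p6, from 250 bases before to 50 bases after a gene's start, were matched by symbol to 36 of the 41 members, 34 of them tested. *Ctsb*, *Ctsh*, *Asah1*, *Npc1* and *Atp6v1h* were not matched. The letters searched, on both strands, were the E-box CACGTG, the longer palindrome TCACGTGA at the core of the CLEAR element, and TCATGTG, the core of the M-box. Each TCACGTGA match is also an E-box match, and TCATGTG contains neither of the others. TCACGTGA was in the windows of 6 of the 34 tested members (17.6%), against 2.38% of the 8681 tested genes with a window and 0.974% of all 32851 windows. CACGTG was in 10 of 34 (29.4%), against 12.2% of tested genes and 7.15% of all windows, and TCATGTG in 5 of 34 (14.7%), against 2.66% and 3.77%. A match is a description of the letters and not of binding. The CLEAR element is known from lysosomal promoters, so a high share in a list of lysosomal genes does not bear on LY2090314. A gene was counted if any of its windows matched, and for *Ctsa* only the window that begins at 164833523 did.

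The 6 members with the TCACGTGA core are printed because they include called and uncalled genes. The core is in capitals, each run reads 5′ to 3′ along the gene's strand, and the sequences are those of RefSeq on GRCm38.p6. *Mcoln1*, *Ctsa*, *Atp6v0d1* and *Atp6v1a* were higher with LY2090314, whereas *Ctsd* and *Gla* were not called. *Lamp1* is shown as the member with the most E-boxes, 4 that begin within 61 bases before its start, none of which is flanked on both sides as the longer core requires, and for it the capitals mark CACGTG.
Mcoln1, chr8:3500463-3500490, plus strand: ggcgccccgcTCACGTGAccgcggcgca
Ctsa, chr2:164833750-164833777, plus strand: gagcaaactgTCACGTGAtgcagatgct
Ctsa, chr2:164833767-164833794, plus strand: atgcagatgcTCACGTGAccagagctac
Atp6v0d1, chr8:105566051-105566078, minus strand: cctactgcggTCACGTGAgacgcggtgc
Atp6v1a, chr16:44139374-44139401, minus strand: tttttttaaaTCACGTGAtaggcttaac
Ctsd, chr7:142387909-142387936, minus strand: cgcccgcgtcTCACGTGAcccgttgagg
Gla, chrX:134601216-134601243, minus strand: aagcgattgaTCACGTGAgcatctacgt
Gla, chrX:134601183-134601210, minus strand: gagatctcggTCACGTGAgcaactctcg
Lamp1, chr8:13159089-13159116, plus strand: gggcaagatatCACGTGgtccagcgccc
Lamp1, chr8:13159122-13159149, plus strand: atgccgactggCACGTGaccacatcacg

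The first base of the core lay 4 bases before the start in *Atp6v0d1*, 46 in *Mcoln1*, 99 in *Ctsd* and 132 in *Atp6v1a*. *Gla* held 2 cores, 228 and 195 bases before the start, and *Ctsa* held 1 core 13 bases before the start and another that began at base 5 after it. The members with the core did not stand apart from the rest by their differences. Their median log2 difference was 0.37, beside 0.39 for the 24 members with neither core nor E-box and 0.17 for the 4 with an E-box alone (*Ctsl*, *Gaa*, *Glb1*, *Lamp1*). Of the 5 members with TCATGTG, 2 were higher (*Ctsa*, *Ctss*), 1 was lower (*Grn*), and *Gla* and *Scarb2* were not called. Their median log2 difference was 0.15. *Grn*, the largest fall, held TCATGTG and no E-box.

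**Figure D2:**
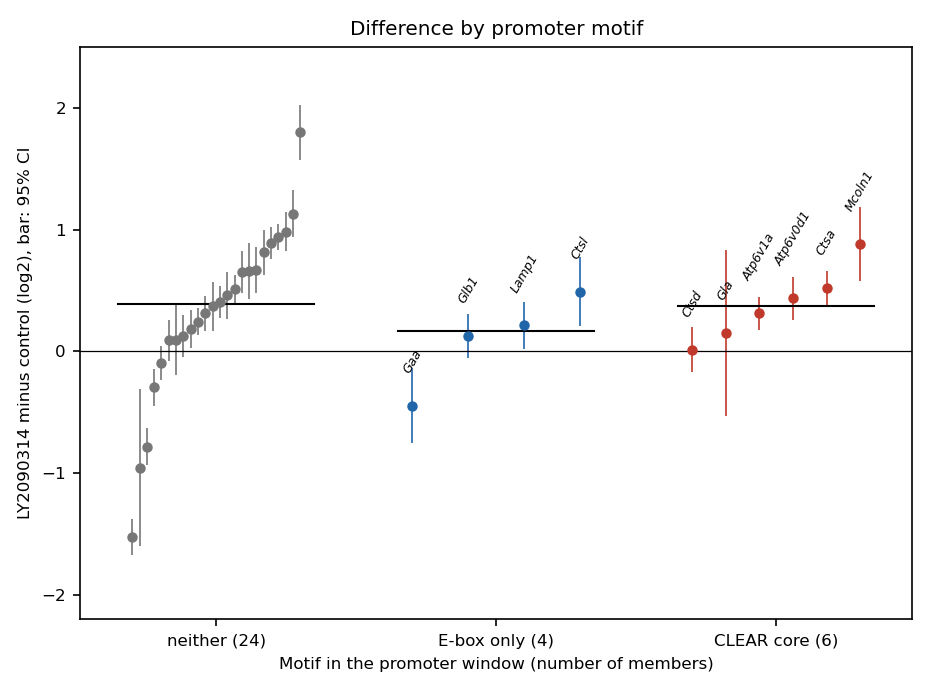
The vertical axis is the log2 difference of LY2090314-treated minus control samples with its 95% confidence interval (limma), for the 34 tested members with a promoter window, grouped by motif, with the group medians as black lines. The 6 members with TCACGTGA have a median of 0.37 and the 24 with neither motif a median of 0.39.

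*Mcoln1*, the lysosomal channel whose calcium release activates calcineurin, a phosphatase of Tfeb, was higher. Its values were 7.32, 7.22 and 7.21 in controls and 8.28, 8.29 and 7.83 in treated samples. The groups did not overlap, and sample c lay 0.46 below the mean of a and b. The log2 difference was 0.88 (SE 0.13, adjusted p = 0.00096 by limma), or 1.84-fold.

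Of the 8 cathepsins, the lysosomal proteases, 5 were higher (*Ctsa*, *Ctsb*, *Ctsh*, *Ctsl*, *Ctss*), *Ctsc* was lower, and *Ctsd* and *Ctsz* were not called. That is 62.5% higher and 12.5% lower, against 24.8% and 25.3% of all tested genes. *Ctsh* encodes an aminopeptidase of lysosomes (ENSMUSG00000032359, chromosome 9, 90054152 to 90076089 of GRCm38, plus strand). It had rlog values of 3.90, 4.67 and 3.90 in the controls and 8.51, 8.63 and 9.11 with LY2090314. All treated samples were above all controls, of which control 2 was the highest. The log2 difference of 4.59 (SE 0.24, adjusted p = 3.4e-06 by limma) is 24.1-fold and ranked 8 of the 11536 tested genes. The controls lay near the limit of 3, where the rlog transformation draws values most strongly towards the mean of the gene. The next largest rise of a member was 1.80, in *Wipi1*.

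The other cathepsins moved far less. *Ctss*, the protease that trims the invariant chain in B cells, had 9.96, 9.95 and 9.99 in controls and 10.34, 10.30 and 10.47 in treated samples. The treated values were above all controls, and the difference was 0.40 (SE 0.06, adjusted p = 0.00069 by limma). *Ctsb*, an abundant cysteine protease, rose by 0.52, and so did *Ctsa*, the protective protein of β-galactosidase and neuraminidase. *Ctsl* rose by 0.49 from values of 3.35 to 3.37, near the limit. *Ctsc*, which activates serine proteases of granules, fell by 0.30 (SE 0.07, adjusted p = 0.0071 by limma), with 10.89 to 11.07 in controls and 10.60 to 10.78 in treated samples and no overlap. *Ctsd*, the main aspartic protease, differed by 0.01 with an interval of -0.17 to 0.20. *Ctsz*, a carboxypeptidase, differed by 0.19 with an adjusted p of 0.051 by limma, and its groups did not overlap. Over the other settings its adjusted p ran from 0.038 to 0.13, and it was called without treated sample a (0.048), after quantile normalization (0.038) and with a limit of 5 on the mean (0.048).

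Some of these genes share transcript sequence with neighbours. Of the distinct runs of 31 bases in their GENCODE vM21 transcripts, 33.2% were shared with *Gm49369* for *Ctsd*, 25.8% with the antisense *Gm47123* for *Ctsl*, 12.4% with *Fdft1* on the opposite strand for *Ctsb*, and 7.67% with *Pltp* on the opposite strand for *Ctsa*. *Pltp* itself had a mean rlog of 5.03 in controls and 6.64 in treated samples, and *Fdft1* one of 9.58 and 9.15. For *Ctsh* the share was 1.71% in all. The library kit marks strand, and whether the authors' counting used it is not stated in the sources used here. The values of *Ctsd*, *Ctsl*, *Ctsb* and *Ctsa* may be affected by this sharing, and by how much was not tested.

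Of the 8 glycosidases and lipid hydrolases, 2 were higher, 1 was lower and 5 were not called, the lowest share of higher genes among the member groups with more than 2 tested genes. The share of higher genes was 25.0%, beside 24.8% of all tested genes. *Lipa*, the acid lipase that frees cholesterol from its esters, had 9.51, 9.42 and 9.41 in controls and 10.33, 10.41 and 10.56 in treated samples. *Lipa* rose by 0.98 (SE 0.07, adjusted p = 1.8e-05 by limma), 1.98-fold, without overlap. *Neu1*, a sialidase that works in a complex with the *Ctsa* protein, had 7.41, 7.43 and 7.43 in controls and 8.35, 8.16 and 8.20 in treated samples. *Neu1* rose by 0.82 (SE 0.08, adjusted p = 0.0001 by limma), again without overlap.

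*Gaa*, the acid α-glucosidase of glycogen, fell by 0.45 (SE 0.13, adjusted p = 0.024 by limma), with 7.86, 8.15 and 8.29 in controls and 7.52, 7.60 and 7.85 in treated samples. The lowest control and the highest treated value were close. The adjusted p was 0.074 without control 2, 0.076 without control 3, 0.08 without a and 0.069 without b, and ran from 0.01 to 0.08 over all settings. *Asah1*, the acid ceramidase, differed by 0.20 (adjusted p = 0.057 by limma, 0.018 without control 1, and 0.018 to 0.18 over all settings). The other hydrolases were *Glb1* (β-galactosidase, difference 0.12), *Hexa* (the α subunit of hexosaminidase, 0.10), *Gusb* (β-glucuronidase, -0.10) and *Gla* (α-galactosidase A, 0.15), and the groups overlapped for each. Without sample c the adjusted p of *Gusb* was 0.038 by limma, the lowest of a range up to 0.45 over all settings. *Gla* was the least precise of all members, with controls from 2.97 to 3.73, treated samples from 2.99 to 4.11 and an interval of -0.53 to 0.83.

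All 4 activator, cholesterol and granulin proteins changed, 3 up and 1 down, where 50.1% of all tested genes were called. *Npc1* and *Npc2* pass cholesterol out of the lysosome, *Psap* is cut into the saposins that help hydrolases reach sphingolipids, and *Grn* encodes progranulin. *Npc1* had 9.56, 9.32 and 9.37 in controls and 10.86, 10.79 and 10.83 in treated samples. Its treated values were close to each other and all above the controls. *Npc1* rose by 1.41 (SE 0.07, adjusted p = 2.4e-06 by limma), 2.66-fold. *Npc2* had 11.90, 11.95 and 12.06 in controls and 12.52, 12.50 and 12.86 in treated samples, and rose by 0.66 (SE 0.10, adjusted p = 0.00094 by limma). *Lipa*, *Npc1* and *Npc2*, which all act on lysosomal cholesterol, were thus each higher. *Npc1* shares 511 exon bases with *Rmc1* on the opposite strand, whose mean rlog was 7.42 in controls and 8.09 in treated samples.

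*Psap* (ENSMUSG00000004207, chromosome 10, 60277627 to 60302597 of GRCm38, plus strand) had 12.48, 12.51 and 12.45 in controls and 13.41, 13.40 and 13.45 in treated samples. It was the member with the smallest SE, and it rose by 0.94 (SE 0.05, adjusted p = 2.5e-06 by limma), 1.92-fold. *Grn* (ENSMUSG00000034708, chromosome 11, 102430315 to 102437048 of GRCm38, plus strand) went the other way. It had 9.23, 9.32 and 9.29 in controls and 7.78, 7.70 and 7.78 in treated samples. *Grn* fell by 1.52 (SE 0.07, adjusted p = 1.3e-06 by limma), so controls were 2.88-fold higher, the largest fall of any tested member and rank 61 among the falls of all tested genes. Progranulin and prosaposin bind each other on the way to the lysosome, and their transcripts here moved in opposite directions.

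Of the 5 tested membrane proteins 3 were higher and none was lower, while *Lamp1* and *Scarb2* were not called. Of all tested genes 24.8% were higher and 25.3% lower. *Laptm5*, a lysosomal protein of hematopoietic cells that lowers surface B-cell and T-cell receptor, had 12.75, 12.77 and 12.82 in controls and 13.88, 13.77 and 14.09 in treated samples. No sample overlapped, and *Laptm5* rose by 1.13 (SE 0.08, adjusted p = 1.9e-05 by limma), 2.19-fold. *Lamp2*, whose splice forms serve chaperone-mediated autophagy and lysosome fusion, rose by 0.89 (SE 0.06, adjusted p = 1.2e-05 by limma), with 11.26 to 11.33 in controls and 12.12 to 12.29 in treated samples. *Laptm4a* rose by 0.24. *Lamp1*, the paralog of *Lamp2* and the most used marker of lysosomes, differed by 0.21 with an adjusted p of 0.069 by limma and touching groups, since control 3 at 11.89 was above treated sample b at 11.88. Without control 3 its adjusted p was 0.049, the lowest of a range up to 0.19 over all settings. *Scarb2*, the receptor that carries glucocerebrosidase to the lysosome, differed by 0.13 with an interval of -0.04 to 0.29. *Cd63* had a mean below 0 and was not tested.

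All 6 autophagy genes of the list were higher, and none of their groups overlapped. Of all tested genes, 24.8% were higher and 58.6% had groups that did not overlap. *Wipi1*, a phosphoinositide-binding protein of the forming autophagosome (ENSMUSG00000041895, chromosome 11, 109573331 to 109611967 of GRCm38, minus strand), had 5.39, 5.33 and 5.33 in controls and 7.05, 7.09 and 7.31 in treated samples. *Wipi1* rose by 1.80 (SE 0.10, adjusted p = 4.3e-06 by limma), 3.48-fold, the largest rise among members after *Ctsh*. *Sqstm1*, the cargo receptor p62, had 11.40, 11.37 and 11.50 in controls and 11.97, 12.03 and 12.23 in treated samples, a rise of 0.65 (SE 0.07, adjusted p = 0.00024 by limma). The genes of the ubiquitin-like proteins that coat autophagosomes rose by 0.51 (*Map1lc3b*), 0.31 (*Gabarapl1*) and 0.37 (*Gabarapl2*). *Ulk1*, the kinase that starts autophagosome formation, rose by 0.46, with 9.57 to 9.69 in controls and 9.91 to 10.21 in treated samples.

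Transcripts of these autophagy genes do not measure flux, and no protein was measured. *Gabarapl1* shares 25.2% of its runs of 31 bases with *1700101I11Rik* on the opposite strand, whose mean stayed below 0 in both groups. *Sqstm1* shares 16.3% with *Mrnip* on the opposite strand, whose mean was 6.93 in controls and 6.77 in treated samples, and *Gabarapl2* shares 11.2% with *Gm3724*. *Map1lc3b* shares 58 exon bases with *Zcchc14* on the opposite strand, with means of 3.91 and 5.70.

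The other 43 autophagy genes, listed by function as *Atg* genes, complexes of the autophagosome and cargo receptors, moved less uniformly. Of these, 13 were higher (30.2%, against 24.8% of all tested genes), 8 were lower (18.6%, against 25.3%) and 22 were not called. Called genes made up 48.8% of the list, near the 50.1% of all tested genes. The median log2 difference was 0.09. The largest rises were those of *Optn* (optineurin) by 1.98 and *Calcoco1* (a receptor of the endoplasmic reticulum) by 1.22. Cargo receptor genes did not all rise, since *Tax1bp1* fell by 0.40. The largest falls were in *Bnip3*, a mitophagy receptor, by 0.59, and *Atg101*, a subunit of the Ulk1 complex, by 0.57. Within the Ulk1 complex, *Ulk1* was thus higher and *Atg101* lower. Of its other genes, *Ulk2* (a rise of 0.61) and *Rb1cc1* (0.19) were higher, and *Atg13* (0.08) was not called.

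The proton pump of the lysosome (V-ATPase) has a membrane part, V0, that carries protons and a cytosolic part, V1, that splits ATP. Of the 5 members, *Atp6v0d1* (V0, a rise of 0.44), *Atp6v1a* (the catalytic V1 subunit, 0.31) and *Atp6ap1* (an accessory protein, 0.67) were higher, and *Atp6v1h* (a regulatory V1 subunit) differed by 0.01 with an interval of -0.12 to 0.14. With *Atp6v0a1*, described next, that is 60% higher and 20.0% lower, against 24.8% and 25.3% of all tested genes. *Atp6ap1* had 10.67, 10.67 and 10.78 in controls and 11.29, 11.27 and 11.55 in treated samples. The groups were apart, with sample c the highest (SE 0.08, adjusted p = 0.00033 by limma).

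*Atp6v0a1*, 1 of the alternative a subunits of V0, was the exception among the pump genes. It had 6.66, 5.98 and 6.62 in controls and 5.20, 5.13 and 6.06 in treated samples. Treated sample c lay above control 2, so the groups overlapped, and c lay 0.90 above the mean of a and b. *Atp6v0a1* fell by 0.96 (SE 0.28, adjusted p = 0.022 by limma). The adjusted p was 0.072 without control 1, 0.071 without control 3, 0.074 without a and 0.07 without b, and ran from 0.002 to 0.083 over all settings.

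Most of the 12 other tested V-ATPase genes were higher, as were 3 of the members. Of the 12, 10 were higher (83.3%, against 24.8% of all tested genes) and none was lower, with a median difference of 0.45. *Tcirg1*, which encodes another a subunit of V0, had the largest rise at 0.84, with 9.43 to 9.61 in controls and 10.11 to 10.55 in treated samples (SE 0.11, adjusted p = 0.00042 by limma). *Atp6v0c*, the proton-carrying ring subunit, rose by 0.66. The 3 tested genes for the a subunit had unlike differences. *Tcirg1* was higher, and *Atp6v0a2* differed by -0.002 with an interval of -0.12 to 0.11. *Atp6v0a1* was lower in the main fit, but its groups overlapped and its call was lost in some settings. *Atp6v1c1* also was not called, and *Atp6v0d2* was listed at 0.

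**Figure D3:**
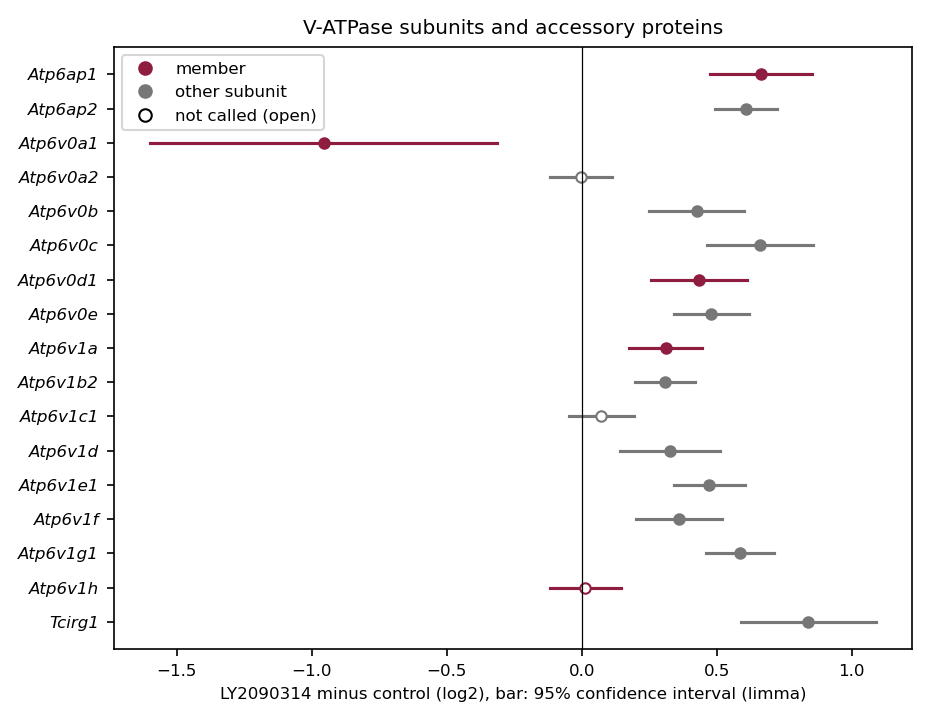
Points are log2 differences of LY2090314-treated minus control samples for 17 V-ATPase genes, with bars for the 95% confidence interval (limma), members in red, other subunits in grey and open points for genes not called. Except for *Atp6v0a1*, at -0.96 with the widest interval and a call lost in some settings, each called gene lies between 0.31 and 0.84.

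The wider pathway, 146 further genes in 7 lists of which 138 were tested, also had more higher than lower genes. Of the 138, 60 were higher (43.5%) and 17 lower (12.3%), against 24.8% and 25.3% of all tested genes, and the median difference was 0.15, below the 0.37 of the members. Among 29 other hydrolases and activators, 13 were higher and 3 lower (44.8% and 10.3%), led by *Ctse* (cathepsin E, an endosomal aspartic protease) with 7.49 to 7.52 in controls, 9.89 to 10.15 in treated samples and a rise of 2.48 (SE 0.08, adjusted p = 3.6e-07 by limma). *Ppt1*, a thioesterase, rose by 0.73. *Naglu* and *Galns*, which degrade heparan and keratan sulfate, fell by 0.47 and 0.32.

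Among 18 other membrane proteins and channels, 9 were higher and 2 lower (50% and 11.1%, against 24.8% and 25.3% of all tested genes), with opposite changes within the calcium channels. *Mcoln2*, a close paralog of *Mcoln1*, had 6.09 to 6.44 in controls and 7.88 to 8.23 in treated samples. *Mcoln2* rose by 1.85 (SE 0.13, adjusted p = 1.8e-05 by limma), whereas *Tpcn1*, a 2-pore channel of endolysosomes, fell by 0.94 (SE 0.07, adjusted p = 2.7e-05 by limma). *Slc29a3*, a lysosomal nucleoside transporter, rose by 1.49, and *Cln3* fell by 0.46. Of 6 sorting genes 1 was higher, *M6pr*, a receptor for mannose 6-phosphate, by 0.18, and none was lower (16.7% higher, median difference -0.01). With 6 tested genes, this share of higher genes cannot be set apart from the 24.8% of all tested genes.

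Among 20 genes of mTORC1 and its lysosomal anchors, 8 were higher and 3 lower. Called genes made up 55.0% of the list, near the 50.1% of all tested genes, with 40.0% higher and 15% lower against 24.8% and 25.3%. *Rragd*, a Rag GTPase, had 8.81 to 8.97 in controls and 9.86 to 10.04 in treated samples and rose by 1.06 (SE 0.07, adjusted p = 1.3e-05 by limma). *Mtor*, the kinase, rose by 0.68. *Lamtor2* and *Lamtor4*, subunits of the Ragulator that holds the Rag proteins on the lysosome, fell by 0.35 and 0.28. Among 10 genes of HOPS, Rab7 and Arl8, which act in lysosome fusion and transport, 6 were higher and 1 was lower (60% and 10.0%). The small GTPase genes *Arl8b* and *Arl8a* rose by 0.90 and 0.52, and *Vps16*, a HOPS subunit, fell by 0.27.

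**Figure D4:**
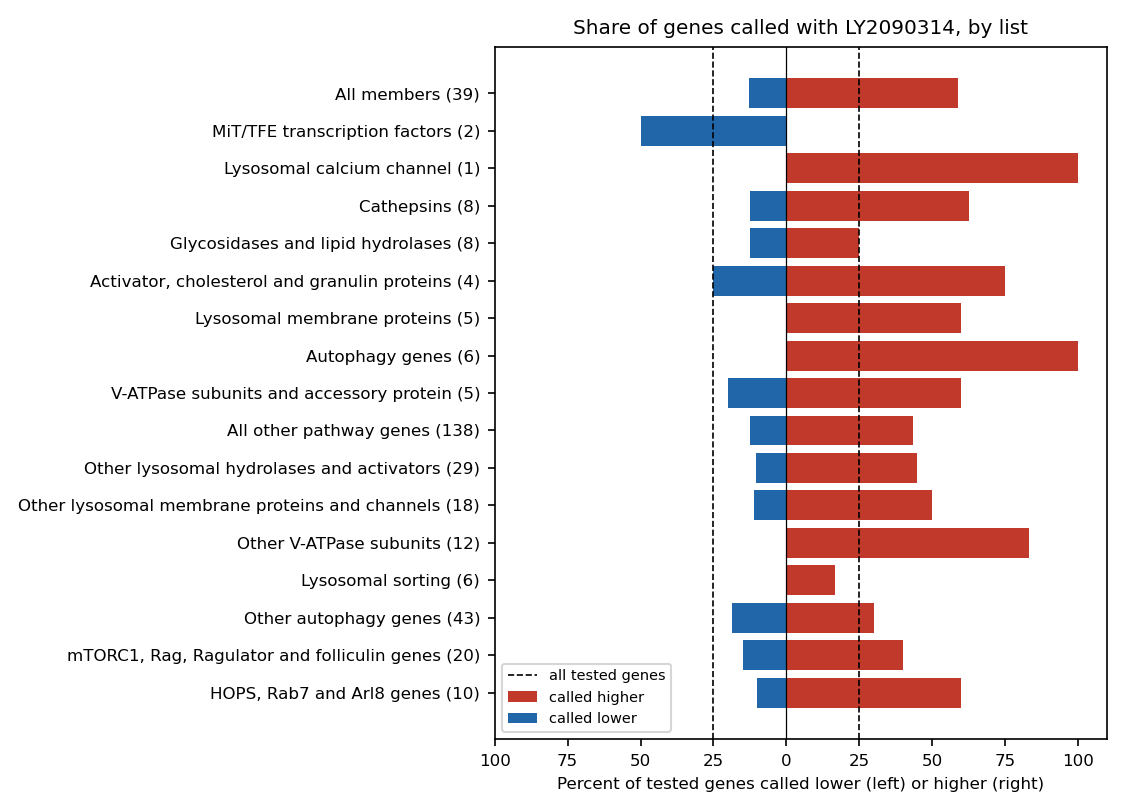
Bars give the percent of tested genes in each list that were called higher (right, red) or lower (left, blue) with LY2090314, with the number of tested genes in parentheses and dashed lines at the shares of all tested genes, 24.8% higher and 25.3% lower. All 6 autophagy members and 83.3% of the other V-ATPase subunits were higher. Of the 6 sorting genes 1 was higher.

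**Figure D5:**
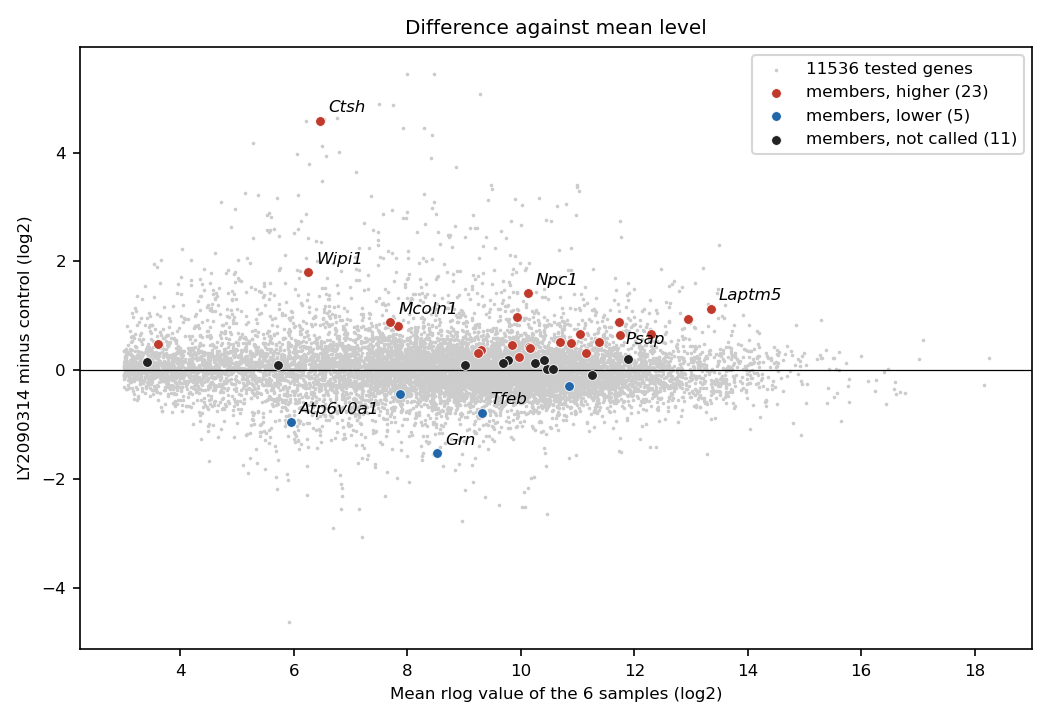
Each point is a gene, with its mean rlog over the 6 samples on the horizontal axis and its log2 difference of LY2090314-treated minus control samples on the vertical axis, grey for all 11536 tested genes and coloured for the members. Higher members lie at low as well as high levels, and *Ctsh* is the only member above 2.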

How the data were processed

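RNA-seq values of ERT2 cells with and without LY2090314 were analysed, 3 samples a group. Per the labels and the study's methods, the authors prepared stranded libraries of polyadenylated RNA, quantified transcripts with Salmon (version 1.4.0), aligned reads to GRCm38 with GENCODE vM24, and analysed counts with DESeq2 (version 1.30.1). The table the authors deposited holds log2 values named as rlog for 41444 genes. It gives no counts. Library depth is therefore not known, and no interval from counting error is given. Which samples and options entered the transformation is not stated in the sources used here. Columns were matched to groups by name, and 6 of 12 columns, whose names match no single group, were not used, so the Cre-ERT2 samples are not analysed here.

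A linear model per gene was fitted to genes with a mean of at least 3 (R 4.3.3, package limma 3.58.1, functions lmFit, contrasts.fit and eBayes, trend on). P-values were adjusted by Benjamini-Hochberg over 11536 genes, with a threshold of 0.05. The fit was tested on simulated data. No count model could be used. The members, the 7 pathway lists and the marker lists (B-lineage, myeloid, T-cell, erythroid, stromal, β-catenin feedback) were chosen with earlier results of these data known, so no test over a list is given. Every member is named, and from each pathway list the called genes with the largest rises and falls, at most 2 in each direction. Some further pathway genes, such as *Tax1bp1*, *Atg13* and *Atp6v0a2*, are named outside this rule, beside related genes. Positions, exon overlaps and shared runs came from GENCODE vM21 of GRCm38, an earlier release than that of the authors, and promoters from RefSeq (GRCm38.p6). Alternatives were no trend, no limit or a limit of 5, median centring, quantile normalization, leaving out each sample, and samples with a shared leading number as 1. Others were a threshold of 0.01, an added limit of 0.5 on the log2 difference, and motif windows of the 250 bases before the start alone.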

Additional observations from a re-analysis of the deposited data

How the results depend on the processing

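Over 12 other settings of the fit, 25 of the 28 called members were tested and kept their call and direction in each, 22 higher and 3 lower (*Tfeb*, *Ctsc*, *Grn*). *Ctsl* kept its call in the 11 settings that tested it, and its mean was under the limit of 5 in the other. *Gaa* (adjusted p 0.01 to 0.08 by limma) and *Atp6v0a1* (0.002 to 0.083) lost their call in some settings. Both lost it with no limit on the mean, where the values were 0.069 and 0.083. Both also lost it with the shared leading number as 1 sample, where they were 0.072 and 0.071. *Ctsz*, *Gusb*, *Asah1* and *Lamp1* gained a call in at least 1 setting. The median difference of the members, 0.37, was 0.314 with no limit, 0.344 after median centring and 0.34 after quantile normalization. It was 0.413 with the shared leading number as 1 sample, and 0.339 to 0.398 without single samples. The median of all genes moved from 0.012 to -0.015 with centring and -0.037 with quantiles. With a log2 difference of at least 0.5 added, 18 members (15 higher) and 32 other pathway genes (28 higher) were called instead of 28 (23) and 77 (60), fewer by construction. In the 250 bases before the start alone, 14.7% of members held TCACGTGA, 26.5% CACGTG and 8.82% TCATGTG. No paired analysis was possible because the names of the treated columns do not say which numbered replicate of the labels each one is. Without counts, what depth limits could not be computed, and shrinkage understates differences of low genes such as *Ctsl*, *Gla* and *Ctsh*.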
